A study of Mus musculus with 8 samples.

Results

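The receptors and receptor partners that mark resting microglia were examined in BV-2 cells as a list of 10 named genes: P2ry12, P2ry13, P2ry6, Gpr34, Cx3cr1, Tmem119, Trem2, Tyrobp, Mertk and Csf1r. They are 10 of the 46078 genes of the count table, each found there by its Ensembl identifier. The libraries came from poly(A) RNA of BV-2, a mouse microglial line kept in culture by immortalization, and the series asks how LPS alters its mRNAs and what AGE and FruArg do to that response. There were 4 groups with 2 biological replicates each, all of 1 cell line and all kept without serum for 4 hours before treatment. Control cells received no LPS, AGE or FruArg. In the LPS group, endotoxin was added at 100 ng/mL for 20 hours. AGE+LPS cells received aged garlic extract (AGE, 0.5% v/v), and FruArg+LPS cells 3 mM FruArg, an arginine-fructose conjugate present in that extract, each from 1 hour before the same LPS. By the labels, every replicate 1 was read in a lane 3 and every replicate 2 in a lane 6. Total counts (replicates 1 and 2) were 2707500 and 8995052 in control, 8720784 and 12069807 in LPS, 6795464 and 6669072 in AGE+LPS, and 4692715 and 5822113 in FruArg+LPS libraries.

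Resting microglia survey the brain through surface receptors for nucleotides, lipids, chemokines, growth factors and dying cells, and their mRNAs are commonly used to tell microglia from other macrophages. P2ry12, P2ry13 and P2ry6 bind extracellular nucleotides, Gpr34 a lysophospholipid and Cx3cr1 the neuronal chemokine fractalkine, while Tmem119 is a membrane protein with few other sources in the brain. Trem2 senses lipids and signals through the adaptor DAP12 (Tyrobp), Mertk takes up apoptotic cells, and Csf1r carries the survival signal of the whole lineage.

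A gene was treated as detected in a group where both libraries held more than 3 counts, which is the limit that a count of 0 allows. Tyrobp, Csf1r, Trem2, Mertk, P2ry13 and P2ry6 were detected in all 4 groups. P2ry12 was detected in 3 groups, as FruArg+LPS replicate 1 held 1 count. Gpr34 was detected in the control and LPS groups and Cx3cr1 in the control and AGE+LPS groups. Tmem119 was detected in 0 groups, with 1 and 4 counts in control, 0 and 0 in LPS, 2 and 1 in AGE+LPS and 6 and 0 in FruArg+LPS libraries. These values lie at or near the floor in every group, the 6 counts being in 1 library, and no change of Tmem119 was measurable at this depth. Without molecular identifiers on the reads, these floors and the counting intervals cover counting error only.

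Levels of different genes were compared as TMM-normalized CPM per kb of exon, with all annotated exons of a gene merged. The order between genes therefore depends on these merged lengths. In control cells Tyrobp stood at 849 ± 6.93 CPM per kb (mean ± SD, n = 2), above 99.6% of the 15165 genes over the floor. Trem2 followed with 93.9 ± 7.50 and Csf1r with 66.4 ± 5.05 CPM per kb, above 96.4% and 94.7% of these genes. The remaining members were much lower. Mertk had 8.25 ± 2.01, P2ry13 5.01 ± 1.84, P2ry12 3.05 ± 0.848, P2ry6 2.80 ± 0.468, Gpr34 1.67 ± 0.680, Cx3cr1 0.828 ± 0.0949 and Tmem119 0.148 ± 0.0194 CPM per kb. In this order of control levels, the only neighbours whose replicates overlapped were P2ry12 and P2ry6. In LPS, AGE+LPS and FruArg+LPS cells the per-kb order began with Tyrobp, Csf1r, Trem2 and Mertk. By merged exon lengths of 5774 bases for Csf1r and 4946 for Trem2, Csf1r lay above Trem2 in each of these groups and below it in control. Which transcripts were present was not examined, and a shorter one would place its gene higher. In AGE+LPS, Mertk overlapped with P2ry6, the next in order, and P2ry6 with P2ry13, while in LPS Gpr34 overlapped with P2ry6. Among the lower members of the FruArg+LPS group, all neighbours from P2ry13 downward overlapped.

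The label of the line was set against markers of microglia. Sall1, the transcription factor that defines brain microglia, had 0 counts in all 8 libraries, Siglech at most 1 and Olfml3 at most 4. Fcrls had 10 and 26 counts in control and 0 and 4 in LPS libraries. Of the markers that separate microglia from other macrophages, Sall1, Siglech, Olfml3 and Tmem119 were thus absent or at the floor, whereas all 10 macrophage lineage markers held more than 3 counts in every library and summed to 4661 and 5979 CPM in control and 4090.1 and 4719 CPM in LPS libraries. These lineage markers themselves moved both ways with LPS, with 3 down-regulated DEGs, among them Lyz2 (-1.96), and 1 up-regulated, Adgre1 (1.39), or 3 and 0 with library size scaling. Markers of neurons, astrocytes, oligodendrocytes, fibroblasts, T cells and B cells summed to at most 3.04 CPM in any library. The 5 endothelial markers summed to 78.0 and 77.8 CPM in control, 10.3 and 8.93 in LPS, 17.2 and 19.0 in AGE+LPS and 6.20 and 5.33 in FruArg+LPS libraries. Nearly all of this was Kdr, a receptor for VEGF (77.3 and 77.1 CPM in control), with Cldn5 at 0 counts in all libraries and no other endothelial marker above 15 counts in any. Kdr moved in the direction of most members with LPS, and the part of such cells in the members' changes was not tested.

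After LPS, 7 of the 9 members tested were down-regulated DEGs and 0 were up-regulated. Genes were called DEGs when they differed at least 2-fold (log2 of 1 in either direction) with an edgeR quasi-likelihood p, adjusted by Benjamini-Hochberg, below 0.05. Among all 12888 genes tested in LPS against control, 22.6% were DEGs and 11.1% were down-regulated DEGs. The DEGs were P2ry12, P2ry13, P2ry6, Gpr34, Cx3cr1, Trem2 and Mertk, while Tyrobp and Csf1r did not reach the call and Tmem119 was not tested. Of the 9, P2ry12, Trem2, Tyrobp, Mertk and Csf1r passed the filter on low counts in both groups. P2ry13, P2ry6, Gpr34 and Cx3cr1 passed it through the control libraries only, so these 4 had to be lower in LPS to be tested, and the count of 7 is given as a description. With at least 10 counts required in every library, Mertk, P2ry12 and Trem2 were the DEGs. Scaling by library size alone moved the median log2 fold change of all genes from 0.020 to -0.40 and the split of all DEGs from 1485 up-regulated and 1433 down-regulated to 932 and 2666. In bulk RNA, fewer cells with a transcript and less of it per cell cannot be told apart.

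Against LPS, neither co-treatment brought a DEG among the members in edgeR with its own filter, all 4 libraries and no replicate block. In AGE+LPS against LPS, 0 of the 6 members tested were DEGs (0.796% of 12317 genes), 3 had an unadjusted p below 0.05, as had 2194 of all genes, and DESeq2 called 0 members and 529 genes. Of these 6, P2ry6 passed the filter through AGE+LPS only and so had to be higher there to be tested, and P2ry12 through LPS only and so had to be lower in AGE+LPS. The same held for P2ry12 in FruArg+LPS against LPS, and P2ry6 was tested in FruArg+LPS against AGE+LPS through AGE+LPS only. In AGE+LPS against LPS with the replicate number, which names the lane, as a block, 1 member (Mertk, lower) was a DEG beside 9.73% of all genes. In FruArg+LPS against LPS, 0 of 5 were DEGs, beside 0% of 12071 genes, while 1543 genes and 2 members had an unadjusted p below 0.05 and DESeq2 called 196 genes. Csf1r (higher) was a DEG with DESeq2 and with the block, under which 6.35% of all genes were DEGs. In FruArg+LPS against AGE+LPS, 0 of 5 were DEGs, beside 0% of 11915 genes, or 0.898% of genes and 0 members with the block. There, 668 genes and 1 member had an unadjusted p below 0.05 and DESeq2 called 0 genes. Set against control, each co-treated group had the same 7 down-regulated members of 9 tested. The share of all genes called was 15% in AGE+LPS (7.41% down-regulated) and 17.4% in FruArg+LPS (7.84% down-regulated). The 3 comparisons with control share the control libraries. Between 4 and 5 of the members tested in each passed the filter through the control libraries only. In AGE+LPS against control these were P2ry12, P2ry13, Gpr34 and Cx3cr1, and in FruArg+LPS against control also P2ry6. They had to be lower in the co-treated group to be tested, and these counts of 7 are likewise a description.

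**Figure D1:**
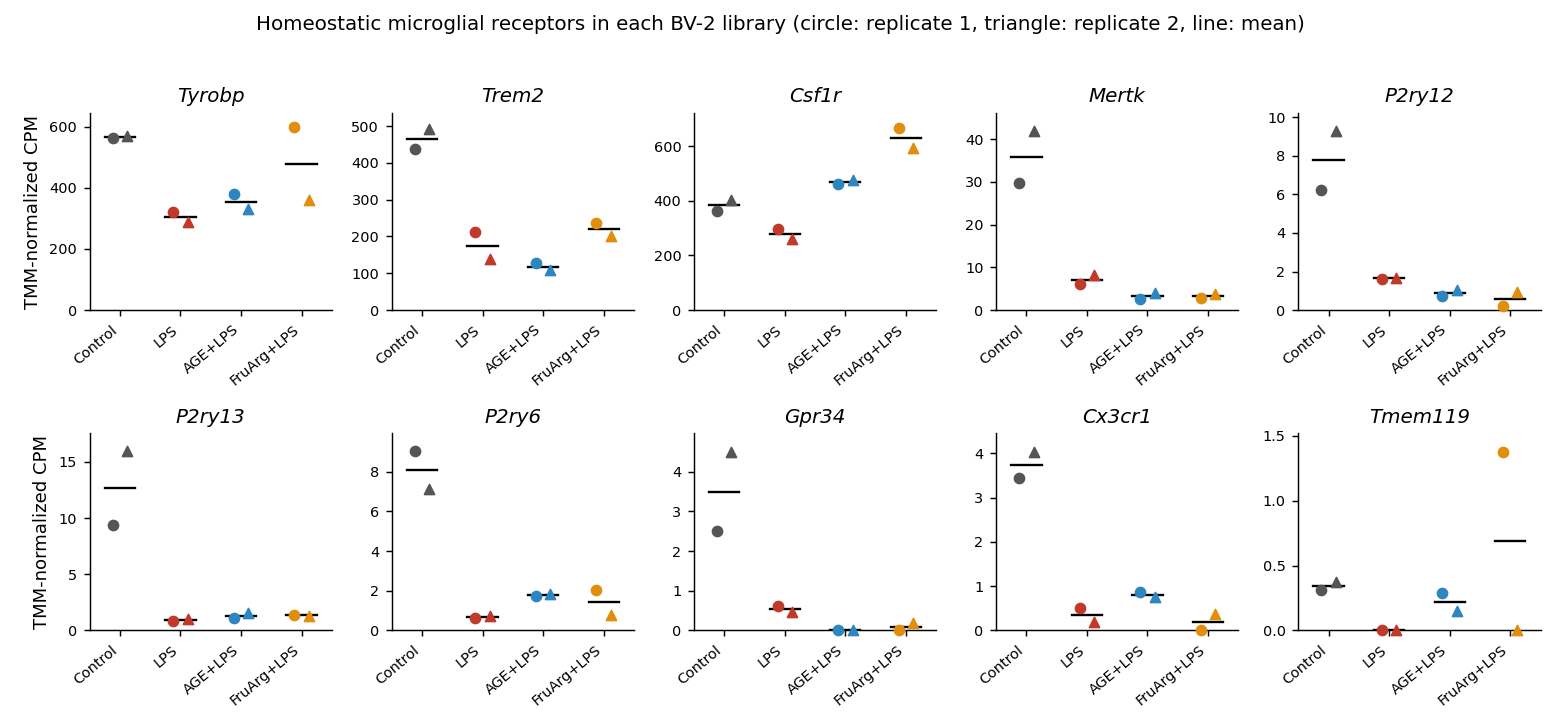
TMM-normalized CPM (vertical axes, linear, starting at 0, a scale per gene) of the 10 members in each of the 8 libraries by group, with circles for replicate 1, triangles for replicate 2 and lines for group means. Both control libraries lie above all LPS, AGE+LPS and FruArg+LPS libraries for P2ry12, P2ry13, P2ry6, Gpr34, Cx3cr1, Mertk and Trem2, while Csf1r is highest in the FruArg+LPS libraries (668 and 595 CPM).

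P2ry12 (ENSMUSG00000036353, chromosome 3, 59216272 to 59262871 in build GRCm38), the ADP receptor that directs microglial processes toward injury, had 6.24 and 9.29 CPM in the control libraries and 1.63 and 1.66 CPM in the LPS libraries (replicates 1 and 2). In AGE+LPS it had 0.715 and 1.06 CPM and in FruArg+LPS 0.230 and 0.952 CPM, the latter from 1 and 5 counts. Both control libraries were above all others, and the AGE+LPS and FruArg+LPS libraries, which overlapped each other, were all below the LPS libraries. The log2 fold change after LPS was -2.23 (SE 0.42, edgeR adjusted p = 0.0038). Without control replicate 2 it was -1.89 and no longer a DEG (adjusted p = 0.053, 1.0e-05 to 0.053 over the alternatives). Against LPS, the further difference was -0.88 (SE 0.53, edgeR adjusted p = 0.46) in AGE+LPS and -1.39 (SE 0.89, edgeR adjusted p = 0.51) in FruArg+LPS, neither a DEG. The FruArg value was -0.77 without FruArg+LPS replicate 1 and -2.75 without FruArg+LPS replicate 2. Against control P2ry12 passed the filter through the control libraries only, so it had to be lower in the co-treated groups to be tested. The log2 fold change there was -3.13 (SE 0.49, edgeR adjusted p = 0.0023) with AGE and -3.61 (SE 0.71, edgeR adjusted p = 0.0089) with FruArg. The FruArg value was -3.30 and not a DEG without control replicate 2 (adjusted p = 0.13, 2.7e-06 to 0.13 over the alternatives), -3.01 without FruArg+LPS replicate 1 and -4.99 without FruArg+LPS replicate 2.

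P2ry13 (ENSMUSG00000036362, chromosome 3, 59207892 to 59210882), also an ADP receptor and the direct neighbour of P2ry12, had 9.35 and 16.0 CPM in control, 0.877 and 1.01 CPM in LPS, 1.14 and 1.52 CPM in AGE+LPS and 1.38 and 1.33 CPM in FruArg+LPS libraries. Every LPS-treated library was far below both controls, and the treated libraries lay close together, between 6 and 11 counts each. The log2 fold change after LPS was -3.71 (SE 0.44, edgeR adjusted p = 3.0e-04). The co-treatments were not tested against LPS, because the counts did not pass the filter. Against control the values were -3.26 (SE 0.44, edgeR adjusted p = 0.0011) with AGE and -3.20 (SE 0.51, edgeR adjusted p = 0.0035) with FruArg. The latter was not a DEG without control replicate 2 (log2 fold change -2.77, adjusted p = 0.076, 2.1e-08 to 0.076 over the alternatives).

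P2ry6 (ENSMUSG00000048779, chromosome 7, 100937630 to 100974649), the UDP receptor that triggers phagocytosis in microglia, had 9.04 and 7.13 CPM in control and 0.626 and 0.737 CPM in LPS libraries. It had 1.72 and 1.82 CPM in AGE+LPS and 2.07 and 0.762 CPM in FruArg+LPS libraries. Both AGE+LPS libraries were above both LPS libraries and far below control, and the FruArg+LPS libraries spanned the AGE+LPS values. After LPS the log2 fold change was -3.47 (SE 0.48, edgeR adjusted p = 6.7e-04). The test of AGE+LPS against LPS was open to P2ry6 only as a gene higher in AGE+LPS, the group through which it passed the filter. The difference was 1.35 (SE 0.53, edgeR adjusted p = 0.25), with 1.13 in lane 3 and 1.04 in lane 6, and was not a DEG, also with the replicate block (adjusted p = 0.056, 0.056 to 0.69 over the alternatives). Against control, the log2 fold changes were -2.14 (SE 0.42, edgeR adjusted p = 0.0070) with AGE and -2.49 (SE 0.62, edgeR adjusted p = 0.023) with FruArg. In the FruArg comparison P2ry6 passed the filter through the control libraries only, so it had to be lower to be tested. The FruArg value was not a DEG without control replicate 1 (-2.34, adjusted p = 0.15) or without control replicate 2 (-2.68, adjusted p = 0.094), with adjusted p of 2.7e-05 to 0.15 over the alternatives. Without FruArg+LPS replicate 1 it was -3.30 and without FruArg+LPS replicate 2 -1.90. FruArg+LPS and AGE+LPS differed by -0.35 (SE 0.81, edgeR adjusted p = 0.95), and the sign turned (0.22) without FruArg+LPS replicate 2.

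Gpr34 (ENSMUSG00000040229, chromosome X, 13632089 to 13640858), a receptor for lysophosphatidylserine, held 8 and 48 counts in control, 5 and 5 in LPS, 0 and 0 in AGE+LPS and 0 and 1 in FruArg+LPS libraries. In TMM-normalized CPM this was 2.49 and 4.50 in control and 0.626 and 0.460 in LPS. Both controls were above both LPS libraries, and the co-treated libraries were at the floor. The log2 fold change after LPS was -2.71 (SE 0.59, edgeR adjusted p = 0.0074). It was -2.16 without control replicate 2 and then not a DEG (adjusted p = 0.14, 2.1e-04 to 0.14 over the alternatives). Against control, Gpr34 was at least 7.92-fold lower in AGE+LPS, with the floor of 3 counts taken per library (edgeR adjusted p = 0.0029). In FruArg+LPS, 1 count stood against 56 in control, a ratio of 38.8 with a 95% counting interval of 6.68 to 1559.6 (edgeR adjusted p = 0.016). Without FruArg+LPS replicate 2, which held that count, the group was at 0 (adjusted p = 1.0e-03), and the fitted log2 fold change was -4.12 without FruArg+LPS replicate 1 (adjusted p = 0.0031, 5.7e-04 to 0.042 over the alternatives). Without control replicate 2, Gpr34 did not pass the filter in either co-treated group against control, and between the co-treated groups and LPS it was not tested.

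Cx3cr1 (ENSMUSG00000052336, chromosome 9, 119901616 to 120069879), the fractalkine receptor, held 11 and 43 counts (3.43 and 4.03 CPM) in control, 4 and 2 in LPS, 6 and 5 in AGE+LPS and 0 and 2 in FruArg+LPS libraries. Control libraries were above all others, the AGE+LPS libraries (0.858 and 0.759 CPM) were above the LPS libraries (0.501 and 0.184 CPM), and those of FruArg+LPS and LPS overlapped. After LPS the log2 fold change was -3.45 (SE 0.64, edgeR adjusted p = 0.0034). It was -4.21 without LPS replicate 1 and -2.84 without LPS replicate 2. In AGE+LPS against control it was -2.18 (SE 0.52, edgeR adjusted p = 0.018), but not a DEG with DESeq2 (adjusted p = 0.086), with all 8 libraries in one fit (adjusted p = 0.075) or without control replicate 2 (adjusted p = 0.18), with 0.0018 to 0.18 over the alternatives. In FruArg+LPS, 2 counts stood against 54 in control, a ratio of 18.7 (95% counting interval 4.93 to 158, edgeR adjusted p = 0.023). Without control replicate 1 this was not a DEG (adjusted p = 0.11, 9.3e-04 to 0.11 over the alternatives). Without FruArg+LPS replicate 1 the fitted log2 fold change was -3.21, and without FruArg+LPS replicate 2 the group was at 0. Without control replicate 2 it did not pass the filter and was not tested. The ligand gene of this receptor, Cx3cl1, had 1 count in 1 AGE+LPS library and 0 in the others.

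Trem2 (ENSMUSG00000023992, chromosome 17, 48346401 to 48354147), the lipid-sensing receptor of phagocytic microglia, had 438 and 491 CPM in control and 211 and 139 CPM in LPS libraries. AGE+LPS libraries had 128 and 109 CPM and FruArg+LPS libraries 237 and 202 CPM. All treated libraries were at most 237 CPM and both controls at least 438 CPM. With TMM the AGE+LPS libraries were the lowest of all, below both LPS and both FruArg+LPS libraries, but scaled by library size they overlapped with LPS, whereas the FruArg+LPS and LPS libraries overlapped. After LPS the log2 fold change was -1.37 (SE 0.24, edgeR adjusted p = 0.0026). AGE+LPS differed from LPS by -0.57 (SE 0.26, edgeR adjusted p = 0.32) and FruArg+LPS from LPS by 0.33 (SE 0.27, edgeR adjusted p = 0.60), and neither was a DEG. With the replicate block the AGE value was -0.54 (adjusted p = 4.0e-06, 4.0e-06 to 0.81 over the alternatives), under the minimum change for a DEG. FruArg+LPS was above AGE+LPS by 0.89 (SE 0.23, edgeR adjusted p = 0.84), with 0.89 in lane 3 and 0.89 in lane 6. With the replicate block the adjusted p of this difference was 0.0047 (0.0047 to 1.0 over the alternatives), while the change stayed under the minimum for a DEG. Against control, Trem2 was a down-regulated DEG in AGE+LPS, at -1.96 (SE 0.20, edgeR adjusted p = 2.9e-04), and in FruArg+LPS, at -1.06 (SE 0.19, edgeR adjusted p = 0.0067). Without FruArg+LPS replicate 2 the latter was -0.96, under the minimum for a DEG (adjusted p = 8.6e-04, 2.5e-05 to 0.025 over the alternatives).

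Tyrobp (ENSMUSG00000030579, chromosome 7, 30413760 to 30417585) encodes DAP12, the adaptor through which Trem2 and related receptors activate the kinase Syk. It had 563 and 569.7 CPM in control, 323 and 288 CPM in LPS, 380.3 and 329.8 CPM in AGE+LPS and 599 and 359.7 CPM in FruArg+LPS libraries. Both LPS libraries were below both controls and below both libraries of each co-treated group. FruArg+LPS replicate 1 was above the controls and replicate 2 well below them, so that with TMM the group overlapped with control and with AGE+LPS, while scaled by library size it lay below control. The log2 fold change after LPS was -0.86 (SE 0.20, edgeR adjusted p = 0.011), with an adjusted p below 0.05 and a change under the minimum for a DEG. With library size scaling it was -1.28 and a DEG (adjusted p = 0.0015, 1.1e-05 to 0.086 over the alternatives). Against LPS it was 0.22 (SE 0.20, edgeR adjusted p = 0.64) in AGE+LPS and 0.66 (SE 0.29, edgeR adjusted p = 0.39) in FruArg+LPS. With the replicate block the FruArg value had an adjusted p of 0.013 (0.013 to 1.0 over the alternatives) and was not a DEG. Against control it was -0.66 (SE 0.20, edgeR adjusted p = 0.045) and -0.22 (SE 0.26, edgeR adjusted p = 0.60), and the latter turned to 0.10 without FruArg+LPS replicate 2. Neither was a DEG, and FruArg+LPS differed from AGE+LPS by 0.43 (SE 0.29, edgeR adjusted p = 0.84).

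Mertk (ENSMUSG00000014361, chromosome 2, 128698956 to 128802894), the receptor tyrosine kinase that binds apoptotic cells through bridging proteins, had 29.6 and 41.9 CPM in control and 6.14 and 8.10 CPM in LPS libraries. It had 2.57 and 3.95 CPM in AGE+LPS and 2.76 and 3.81 CPM in FruArg+LPS libraries. The groups formed 3 separate levels, with controls highest, LPS below them, and both co-treated groups, which overlapped each other, lowest. The log2 fold change after LPS was -2.30 (SE 0.29, edgeR adjusted p = 4.1e-04). AGE+LPS differed from LPS by -1.13 (SE 0.39, edgeR adjusted p = 0.20), with -1.17 in lane 3 and -0.99 in lane 6. It was a DEG with the replicate block (adjusted p = 0.0015, 0.0015 to 0.63 over the alternatives). FruArg+LPS differed from LPS by -1.10 (SE 0.49, edgeR adjusted p = 0.39), with -1.08 in lane 3 and -1.04 in lane 6, and was a DEG only with all 8 libraries and the replicate block in one fit (adjusted p = 0.019, 0.019 to 1.0 over the alternatives). Against control the log2 fold changes were -3.45 (SE 0.32, edgeR adjusted p = 1.7e-04) with AGE and -3.41 (SE 0.35, edgeR adjusted p = 4.9e-04) with FruArg. The difference between the co-treated groups was 0.012 (SE 0.61, edgeR adjusted p = 1.0), and its sign changed with the settings.

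Csf1r (ENSMUSG00000024621, chromosome 18, 61100598 to 61132149), the receptor for CSF-1 and IL-34, had 363 and 404 CPM in control and 297 and 259.9 CPM in LPS libraries. AGE+LPS libraries had 461 and 477 CPM and FruArg+LPS libraries 668 and 595 CPM. With TMM the 4 groups did not overlap, in the order LPS, control, AGE+LPS and FruArg+LPS from low to high, but the place of AGE+LPS above control depended on the scaling. LPS against control was not a DEG, at -0.43 (SE 0.20, edgeR adjusted p = 0.14), and its adjusted p was 0.018 under the replicate block and 0.011 with library size scaling (0.011 to 0.57 over the alternatives). AGE+LPS was above LPS by 0.75 (SE 0.20, edgeR adjusted p = 0.12), with 0.63 in lane 3 and 0.87 in lane 6. With the replicate block this adjusted p was 9.5e-11 (9.5e-11 to 0.51 over the alternatives), under the minimum fold change for a DEG. FruArg+LPS was above LPS by 1.19 (SE 0.24, edgeR adjusted p = 0.18), with 1.17 in lane 3 and 1.20 in lane 6. Csf1r became an up-regulated DEG under 5 of 13 alternatives, with adjusted p from 9.7e-07 to 0.39 over all of them. Among these 5 were the replicate block (adjusted p = 9.7e-07), DESeq2 (adjusted p = 0.0018), genes of at least 1 count kept (adjusted p = 0.0033) and FruArg+LPS replicate 2 left out. Against control Csf1r was at 0.31 (SE 0.19, edgeR adjusted p = 0.31) in AGE+LPS and 0.75 (SE 0.19, edgeR adjusted p = 0.027) in FruArg+LPS, the latter under the minimum for a DEG. FruArg+LPS differed from AGE+LPS by 0.42 (SE 0.23, edgeR adjusted p = 0.84) and was not a DEG. With library size scaling the AGE value against control was 0.056 (adjusted p = 0.87, 0.092 to 0.87 over the alternatives). The FruArg value against control was then 0.35 (adjusted p = 0.21, 9.1e-04 to 0.25 over the alternatives). Of the exon bases of Csf1r, 873 (15.1%) overlap Hmgxb3 on the opposite strand, which held 124 to 450 counts per library. Whether the counting used strand is not given in the sources used here, so reads from the shared stretch cannot be told apart. P2ry12 shares 9 exon bases with Med12l, Cx3cr1 shares 78 with a noncoding gene, and the other members share none.

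**Figure D2:**
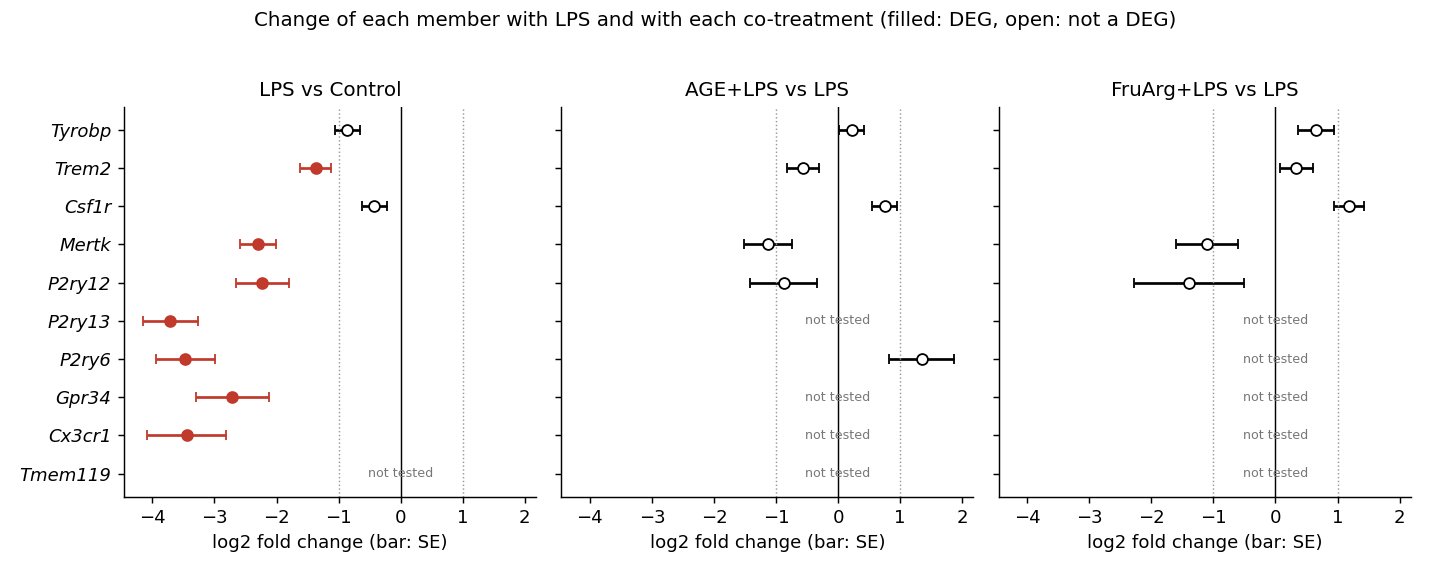
Log2 fold change (horizontal axes) of the members with LPS against control and with each co-treatment against LPS, from edgeR without the replicate block, with SE as bars, DEGs as filled red points, other genes as open points and the minimum change of 1 in either direction as dotted lines. After LPS 7 members lie beyond -1 as DEGs, and against LPS Csf1r is at 0.75 and 1.19 and Mertk at -1.13 and -1.10, with no DEG.

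The members' ligands were measured in the same libraries. Csf1, the ligand of Csf1r, had 75.5 and 88.3 CPM in control, 174 and 172 in LPS, 251 and 212 in AGE+LPS and 249.6 and 279 in FruArg+LPS libraries. It was thus higher in every treated library, and its change after LPS was 1.11 (SE 0.20, edgeR adjusted p = 0.0026). Il34, the other ligand, held 0 and 1 counts in control and 15 and 3 in FruArg+LPS libraries and was not tested in LPS against control. Pros1, a bridging protein for Mertk, fell from 31.8 and 32.7 CPM in control to 4.38 and 5.71 CPM in LPS libraries, with a change of -2.63 (SE 0.28, edgeR adjusted p = 1.6e-04) on the log2 scale. Gas6, the other bridging protein, held at most 3 counts in any library, as did Tyro3, a relative of Mertk. Axl, another relative, had 4.05 and 3.75 CPM in control, 6.76 and 6.45 in LPS, 1.14 and 0.607 in AGE+LPS and 5.74 and 2.67 in FruArg+LPS libraries, at 0.81 (SE 0.37, edgeR adjusted p = 0.13) after LPS. AGE+LPS lay below LPS for Axl, at -2.88 (SE 0.47, edgeR adjusted p = 0.056), a DEG with the replicate block (adjusted p = 5.4e-09). It passed the filter there through LPS only, so it had to be lower in AGE+LPS to be tested. Of the 8 ligands listed, 5 were tested after LPS, of which Csf1 and Pla1a (1.57), an enzyme that makes lysophosphatidylserine, were up-regulated and Pros1 and Apoe (-1.15), a lipid carrier bound by Trem2, down-regulated. With library size scaling 1 was up-regulated and 3 down-regulated.

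Of the TREM family and the DAP12 pathway, all 21 listed genes were tested after LPS, of which 5 were up-regulated DEGs and 2 down-regulated, with a median log2 fold change of -0.49 beside 0.020 over all genes. Syk, the kinase recruited by DAP12, rose from 111 and 106 CPM to 539 and 477 CPM, with a change of 2.26 (SE 0.21, edgeR adjusted p = 8.6e-05) on the log2 scale, while Trem2 fell and Tyrobp was lower. Malt1 (1.79), Treml2 (1.47) and Treml4 (3.99), the last tested through the LPS libraries only, also rose, and Clec5a (-1.42), another DAP12-coupled receptor, and Btk (-1.11) fell. Trem1 was not a DEG, at 1.20 (SE 0.66, edgeR adjusted p = 0.20). Library size scaling gave 4 up-regulated and 7 down-regulated. Among the P2Y receptors and the neighbours of P2ry12, 4 of 7 genes were tested. P2ry1, another ADP receptor, fell from 55.8 and 68.9 to 7.89 and 8.93 CPM, at -2.85 (SE 0.25, edgeR adjusted p = 6.2e-05), and P2ry2, an ATP and UTP receptor, rose from 6.24 and 7.79 to 30.3 and 23.8 CPM, at 1.95 (SE 0.29, edgeR adjusted p = 9.5e-04). Of the genes beside P2ry12 and P2ry13, P2ry14 was at 0.76 (SE 0.55, edgeR adjusted p = 0.33) and Med12l at -0.75 (SE 0.40, edgeR adjusted p = 0.18), neither a DEG. With library size scaling, 1 of these 4 was up-regulated and 2 were down-regulated.

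Among 24 other genes typical of resting microglia, 18 were tested after LPS, with 6 DEGs lower, 2 higher and a median of -0.49. Beside the counts of this and every other list, 22.6% of all genes tested after LPS were DEGs, 11.1% down-regulated and 11.5% up-regulated, and the median over all genes was 0.020. The complement genes C1qc (-2.06) and C1qa (-1.86), the ectonucleotidase Entpd1 (-1.93) and Golm1 (-1.33) fell, and Selplg (1.27) and Rhob (1.12) rose. Under library size scaling 9 were down-regulated and 0 up-regulated. Of 15 transcription factors of the lineage tested, 7 were down-regulated and 0 up-regulated (median -0.71), among them Mef2c (-2.94), Etv5 (-2.81) and Cebpa (-2.26). Mef2c, a factor of microglial maturation, had 95.7 and 111 CPM in control, 11.3 and 14.8 in LPS, 12.7 and 10.8 in AGE+LPS and 7.58 and 10.7 in FruArg+LPS libraries. Like most members, it was lower in every treated library than in both controls. Of 20 disease-associated microglial genes, 7 were down-regulated and 2 up-regulated (median -0.46), or 8 and 1 with library size scaling, with Timp2 (-2.87), Itgax (-2.47), Ank (-2.40) and Igf1 (-2.26) the lowest and Cd52 (1.59) the highest. Of 10 apoptotic cell uptake genes tested, Pros1 and Dock1 (-2.83) were down-regulated and 0 up-regulated (median -0.24), a share near the 22.6% of all genes called. Of the sheddases and their regulators, which release the ectodomains of receptors such as Trem2 and Csf1r, 3 of 5 were tested. Rhbdf2 (1.92) rose, and Adam17, at 1.00 (SE 0.20, edgeR adjusted p = 0.0054), lay at the minimum fold change and fell just short of it with the replicate block. With library size scaling, 1 of the 3 was up-regulated and 1 down-regulated. All 10 genes of the LPS response list were up-regulated, from 3.71 (Tnf) to 10.07 (Il6).

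Of these lists, few genes were DEGs against LPS without the block. In AGE+LPS, C1qb, at -2.12 (SE 0.28, edgeR adjusted p = 0.039), and Treml2, at -1.43 (SE 0.21, edgeR adjusted p = 0.047), were down-regulated and Dock1, at 1.81 (SE 0.26, edgeR adjusted p = 0.042), was up-regulated, as 1 of 16, 1 of 20 and 1 of 10 genes tested in their lists. Of the transcription factors, ligands, P2Y genes, disease-associated genes and sheddases, 0 were DEGs in AGE+LPS against LPS by edgeR without the block. Of the LPS response genes, Nos2 (-2.61) was down-regulated and Il1b (1.54) up-regulated. In FruArg+LPS against LPS and against AGE+LPS, 0 genes of any list were DEGs in that fit. With the replicate block, Axl was among the down-regulated DEGs of AGE+LPS against LPS, where 9.73% of all genes were DEGs. Under this block, 1 of 15 transcription factors was up-regulated, and 1 of 4 P2Y genes and 1 of 20 disease-associated genes were down-regulated. Of the 16 other homeostatic genes, 1 was up-regulated and 4 down-regulated, and of the 10 uptake genes 2 and 1. The ligands and sheddases held 0 DEGs. In FruArg+LPS against LPS the block also brought list genes past the call, among them Dock1 (1.21), Cebpa (1.28) and Itgax (1.16) up-regulated and Nos2 (-1.83) down-regulated.

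Genes with a pattern most like a member were sought for the 4 members with the highest per-kb level, by Pearson's r of TMM-normalized log2 CPM over the 8 libraries among 10017 genes with a mean of at least 5 CPM. The 8 libraries fall into 4 treatment groups, so r is given as a description. For Tyrobp they included Tmem14c (r = 0.982) and Nop10 (0.981). For Csf1r they were Cd81 (r = 0.975), a tetraspanin, B3galt4 (0.962) and Itgal (0.949), and for Trem2 Pld4 (0.986), a lysosomal nuclease, Lgmn (0.981), a lysosomal protease, and Marc2 (0.980). For Mertk they were Zranb3 (r = 0.994), Gyg (0.993) and Prim2 (0.993).

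RefSeq promoter sequences (GRCm38.p6, 250 bases before to 50 after the transcript start) were at hand for 5 of the 10 members, P2ry12, P2ry13, Cx3cr1, Trem2 and Mertk, all of them down-regulated after LPS. They were searched on both strands for AGGAAG, the core letters bound by PU.1. They were also searched for a loose form of the MEF2 core, CTA and TAG with any 4 bases between them. AGGAAG occurred in 35.4% of all 32851 promoters and in 3 of the 5, those of P2ry12, P2ry13 and Trem2, starting 52, 47 and 41 bases before the transcript start. The loose MEF2 form occurred in 3.69% of all promoters and in that of Cx3cr1 alone among the 5, starting 67 bases before the start. The Cx3cr1 match, CTAAAGATAG, holds a G among its 4 middle bases. The matches did not overlap each other and are a description of these windows, not of binding. The 3 promoters with AGGAAG are given with the motif, or its reverse complement, in capitals. P2ry12 is at chr3:59262936-59263235 (minus strand), P2ry13 at chr3:59210833-59211132 (minus strand) and Trem2 at chr17:48346151-48346450 (plus strand).
P2ry12: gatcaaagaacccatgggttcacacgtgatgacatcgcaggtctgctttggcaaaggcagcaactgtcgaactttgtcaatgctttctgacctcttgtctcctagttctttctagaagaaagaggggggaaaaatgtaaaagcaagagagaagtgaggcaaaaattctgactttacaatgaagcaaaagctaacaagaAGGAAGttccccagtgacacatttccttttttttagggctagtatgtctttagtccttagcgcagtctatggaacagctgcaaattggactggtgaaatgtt
P2ry13: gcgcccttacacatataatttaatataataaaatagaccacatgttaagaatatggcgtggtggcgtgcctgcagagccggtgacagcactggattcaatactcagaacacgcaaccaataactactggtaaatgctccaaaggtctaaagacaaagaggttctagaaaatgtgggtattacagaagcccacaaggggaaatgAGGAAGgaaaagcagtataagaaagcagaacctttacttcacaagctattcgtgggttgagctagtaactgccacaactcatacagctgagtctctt
Trem2: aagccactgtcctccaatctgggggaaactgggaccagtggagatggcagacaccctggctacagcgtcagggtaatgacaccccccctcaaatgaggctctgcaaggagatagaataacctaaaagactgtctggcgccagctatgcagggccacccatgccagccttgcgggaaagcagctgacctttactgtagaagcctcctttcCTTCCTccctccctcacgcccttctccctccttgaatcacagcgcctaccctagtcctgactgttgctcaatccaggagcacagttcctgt
The promoter of Cx3cr1, at chr9:120068247-120068546 (minus strand), is shown with its match to the loose MEF2 form in capitals.
Cx3cr1: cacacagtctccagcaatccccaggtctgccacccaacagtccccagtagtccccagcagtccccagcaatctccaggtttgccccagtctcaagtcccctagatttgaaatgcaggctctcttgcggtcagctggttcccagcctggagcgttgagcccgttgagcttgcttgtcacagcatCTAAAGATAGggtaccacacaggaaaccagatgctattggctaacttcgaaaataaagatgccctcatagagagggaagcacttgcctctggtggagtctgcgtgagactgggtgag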

How the data were processed

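RNA-Seq reads from 8 BV-2 libraries were processed by the authors, who clipped and quality-filtered single-end reads, mapped them with TopHat2 to GRCm38 from Ensembl and deposited the counts of reads per Ensembl gene made with featureCounts. Tool versions, annotation release, strandedness and the handling of multi-mapping reads are not given in the sources used here. The counts were whole numbers without normalization and were used as deposited. The length of LPS exposure is from the study's methods, which name TRIzol for RNA extraction where the labels name RNeasy. Of 46078 genes, 45143 were matched by identifier to GENCODE M21, which gave symbols, positions and exon lengths.

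Each pair of groups was fitted on its own 4 libraries in edgeR 4.0.16 (R 4.3.3) with filterByExpr, TMM, the two-sided quasi-likelihood F-test and adjustment over all genes tested. The filter required about 10 counts in 2 libraries (1.13 to 1.90 CPM). Levels used 1 TMM scaling over the 8 libraries. With 2 libraries a group, the smallest exact permutation p is 0.333, and none is given. The members and gene lists were chosen with earlier results of these data known. Named are all members, list genes called with a mean of at least 5 CPM (up to 4 in each direction by fold change), direct ligands, partners and paralogues, and up to 3 of the genes most like each of 4 members. Alternatives were DESeq2 1.42.0, RLE size factors, library size scaling, other filters, no minimum on the fold change, all 8 libraries in one fit, the replicate block, a floor of 10 counts and each library left out in turn. The labels tie replicate 1 to lane 3 and replicate 2 to lane 6, and the names of all replicate 2 libraries, but of no replicate 1 library, carry a further tag that the labels do not explain, so the replicate number was used to pair the libraries: over 12873 genes, what set replicate 2 apart from replicate 1 in a group correlated with the same difference in other groups, with r from 0.244 to 0.628. Between replicates, chi-square per degree of freedom was 11.9 to 41.3. The code was tested on simulated data. Floors of 3 counts were 0.249 to 1.11 CPM per library. Plots were made in matplotlib 3.10.9 (Python 3.11.15).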

Additional observations from a re-analysis of the deposited data

How the results depend on the processing

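Of 43 log2 fold changes of members, 40 kept their direction and 26 their direction and call under every alternative run. The replicate block changed the members' calls of Mertk in AGE+LPS against LPS and of Csf1r in FruArg+LPS against LPS, and no other call of a member. In the fit of all 8 libraries the block also brought Mertk in FruArg+LPS against LPS past the call. Mertk in FruArg+LPS against AGE+LPS reversed to -0.12 with library size scaling, -0.0018 with DESeq2 and -0.014 with at least 1 count, and lay between -0.27 and 0.34 with libraries left out. Also with libraries left out, P2ry6 in FruArg+LPS against AGE+LPS lay between -1.19 and 0.22 and Tyrobp in FruArg+LPS against control between -0.62 and 0.10. The cause was not tested.

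With at least 10 counts in every library, which leaves fewer members tested, DEGs among the members numbered 3 in LPS, 3 in AGE+LPS and 2 in FruArg+LPS against control. With more than 10 counts as the floor, 5 members were detected in LPS (8 with more than 3 counts) and 5 in AGE+LPS (8). DEGs of AGE+LPS against LPS numbered 529 with DESeq2, 927 with at least 1 count, 376 with all 8 libraries in one fit, 1199 with the replicate block, 895 with both and 349 to 646 with a library left out. Members called were 1 with the block and 1 with both. DEGs of FruArg+LPS against LPS numbered 196, 503, 5, 766 and 853 under these settings and 5 to 1549 with a library left out. Members called were 1 with DESeq2, 1 with at least 1 count, 1 with the block, 2 with the block in all 8 libraries and 0 to 1 with a library left out. DEGs of FruArg+LPS against AGE+LPS numbered 40 with at least 1 count, 107 with the block, 151 with the block in all 8 libraries and 10 to 233 with a library left out. In FruArg+LPS against control, libraries left out gave 1448 to 3416 DEGs and 2 to 7 members. In these fits the lone library of a group is assumed to vary like the others. Library size scaling gave a median log2 fold change over all genes of -0.40 (LPS against control), 0.15 (AGE+LPS against LPS), -0.15 (FruArg+LPS against AGE+LPS), -0.24 (AGE+LPS against control) and -0.40 (FruArg+LPS against control). It moved the DEGs of AGE+LPS against LPS from 36 up-regulated and 62 down-regulated to 73 and 61, of AGE+LPS against control from 951 and 922 to 683 and 1385, and of FruArg+LPS against control from 1154 and 944 to 708 and 1936. Depth limits Tmem119, Gpr34 and Cx3cr1, and control replicate 1 had the fewest counts.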
